A study of Rattus norvegicus with 4 samples.

Results

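The miR-132 and miR-212 cluster is made of 4 mature microRNAs (miRNAs), miR-132-3p, miR-132-5p, miR-212-3p and miR-212-5p, out of 693 mature rat miRNA names in the RefSeq table used here (assembly GRCr8). Reads were given to a member when the first 18 bases of the sequenced tag were identical to those of its mature sequence, whatever followed, and no other mature sequence of the table shares these starts. The reads came from vascular smooth muscle cells of the aorta of Sprague-Dawley rats, all kept without serum for 48 h. In 3 libraries they had been exposed for 1 h, 3 h or 24 h to 100 nM of angiotensin II (Ang II), the vasoconstrictor peptide of the renin-angiotensin system, and in the control library to none. The question was how the small RNAs of stimulated cells differ from those of unstimulated cells. Each group is 1 library, so no difference below has a replicate check. Intervals are exact at 95% and describe counting error alone. The control carries no time of its own, so what Ang II did and what the hours in culture did cannot be told apart. The number of animals or cultures behind a library is not stated in the labels.

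miR-132 and miR-212 are neighbouring hairpins processed from a shared primary transcript, whose transcription is known to be switched on by the cAMP response element-binding protein (CREB) when growth factors, hormones or neuronal activity signal through cAMP, calcium or ERK. Each hairpin is cut into a 3p arm, which is usually the one kept in the silencing complex, and a 5p arm, which is usually the rarer one. A miRNA finds its target mRNAs mainly through its seed, the bases 2 to 8 from its 5' end. In vascular cells, a known target of miR-132 is the Ras inhibitor Rasa1. Neither CREB activity nor any target was measured in these libraries.

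The 4 mature sequences are shown because arms with the same seed can share target mRNAs. They are written 5' to 3' from RefSeq (GRCr8), with the seed in capitals.
miR-132-3p: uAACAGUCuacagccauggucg
miR-212-3p: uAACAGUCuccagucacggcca
miR-132-5p: aCCGUGGCuuucgauuguuacu
miR-212-5p: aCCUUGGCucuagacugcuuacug

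The 3p arms share the seed AACAGUC, and no other mature sequence of the table has it. Counted from 1 at the 5' end of miR-132-3p, the 3p arms are identical at 17 of 22 positions and differ by A10C, C14U, U17C, U20C and G22A, the miR-132-3p base written first. The 5p arms have seeds of their own, which differ by G4U (miR-132-5p base first), and are identical at 14 of 22 positions. All 4 lie on the plus strand of rat chromosome 10 in GRCr8: miR-212-5p at chr10:60521771-60521794, miR-212-3p at chr10:60521811-60521832, miR-132-5p at chr10:60522055-60522076 and miR-132-3p at chr10:60522091-60522112. Between miR-212-3p and miR-132-5p lie 222 bases, and 0 other genes of the RefSeq table overlap either miRNA. The nearest protein-coding gene on the miR-212 side is Hic1.

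The hairpin of miR-132 is shown because it tells which bases at the end of a read are encoded in the gene. The 5p arm and then the 3p arm are in capitals, and the base that follows the 3p arm is c.
mir-132 hairpin: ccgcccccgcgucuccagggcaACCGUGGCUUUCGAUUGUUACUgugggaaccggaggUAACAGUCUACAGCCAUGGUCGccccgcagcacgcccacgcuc

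The libraries held between 13119417 and 14534892 reads that name a sequence, and levels are given as reads per 1000000 of these (RPM). Annotated miRNAs made up between 68.4% (control) and 74.4% (3 h) of them. The 4 smooth muscle markers chosen to check the cell type (both arms of miR-143 and miR-145) summed to 251047 RPM in the control and to 305774, 312678 and 308636 RPM at 1 h, 3 h and 24 h. Nearly all of this sum was miR-143-3p, and the other 3 had log2 ratios to the control of -0.14 (miR-143-5p), -0.04 (miR-145-5p) and -0.28 (miR-145-3p) at 3 h. In the same order these ratios were -0.03, 0.09 and -0.22 at 1 h, and 0.29, 0.11 and -0.06 at 24 h. Of the blood markers, 2 of 5 had reads (miR-144-3p, miR-223-3p and miR-142-5p were at 0), and the list summed to between 0.457 and 0.757 RPM. The striated muscle list summed to between 99.8 and 124 RPM. Nearly all of this was miR-1-3p (119 RPM in the control), while miR-133b-3p and miR-208a-3p had 0 reads in each library. The epithelial list, with 3 of its 6 markers in the table, summed to between 3.55 and 6.40 RPM. In neurons, miR-132 is abundant. The 4 neuronal markers with a sequence in the table (miR-9a-5p, miR-128-3p, miR-137-3p and miR-138-5p) summed to 93.6 RPM in the control and to 75.1, 85.5 and 73.3 RPM at 1 h, 3 h and 24 h. Most of this sum was miR-9a-5p and miR-128-3p (43.8 and 42.7 RPM in the control). miR-138-5p had 7.15 RPM in the control and 7.32, 7.86 and 5.71 RPM at 1 h, 3 h and 24 h. miR-137-3p had 0 reads in 3 libraries and 1 at 24 h. In such bulk samples, more cells of a type and more of an RNA per cell cannot be told apart. The endothelial markers, annotated in rat as miR-126a-3p and miR-126a-5p, summed to 120 RPM in control cells and to 113, 125 and 105 RPM at 1 h, 3 h and 24 h. Log2 ratios to the control in the same order were -0.13, 0.05 and -0.20 for miR-126a-3p. For miR-126a-5p they were 0.32, 0.14 and -0.15. The neuronal miR-124-3p was not analysed here.

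The 4 arms together held 533 reads in control cells, 469 after 1 h, 1337 after 3 h and 1312 after 24 h. That is 37.0, 35.7, 93.0 and 90.3 RPM, or 0.00541%, 0.00491%, 0.0125% and 0.0125% of the annotated miRNA reads. The cluster was therefore a small part of these libraries, low in the control and at 1 h, and high at 3 h and 24 h. Against the control, the summed level was 0.966 times as high at 1 h (0.851 to 1.10), 2.51 times at 3 h (2.27 to 2.78) and 2.44 times at 24 h (2.20 to 2.70).

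miR-132-3p, the arm that carries the known functions of miR-132, made up most of this sum. It had 491 reads in control cells, 410 after 1 h, 1229 after 3 h and 1204 after 24 h, or 34.1 RPM (31.2 to 37.3), 31.3 RPM (28.3 to 34.4), 85.5 RPM (80.8 to 90.4) and 82.8 RPM (78.2 to 87.6). The intervals of the control and 1 h libraries overlap each other, those of the 3 h and 24 h libraries overlap each other, and the 2 pairs stand apart. In order of level among all annotated miRNAs, miR-132-3p was at place 116 in the control, 118 after 1 h, 92 after 3 h and 88 after 24 h.

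A miRNA was called higher or lower when it was past 1.5-fold on the scale log2((RPM + 1)/(RPM + 1)) and had at least 100 reads in the higher of the compared libraries. miR-132-3p was the 1 of the 4 members with 100 reads in any library. At 3 h it had 85.5 RPM against 34.1 RPM in the control, a ratio of 2.51 (2.26 to 2.79) and a log2 ratio of 1.30, and was called higher. Of all 176 miRNAs with enough reads, 7 were called higher at 3 h (3.98%), and the median log2 ratio was -0.05. miR-132-3p had the third highest log2 ratio of the 176, after miR-222-5p and miR-129-5p.

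At 24 h, miR-132-3p had 82.8 RPM against 34.1 RPM in the control, a ratio of 2.43 (2.18 to 2.70) and a log2 ratio of 1.26, and was again called higher. Of 178 miRNAs, 9 were called higher at 24 h (5.06%), with a median log2 ratio of -0.25 over all 178. It had the second highest log2 ratio, after miR-129-2-3p. The 3 h and 24 h ratios share 1 control library, so they are not independent of each other.

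At 1 h, miR-132-3p had 31.3 RPM against 34.1 RPM in the control, a ratio of 0.916 (0.802 to 1.05), and was not called higher or lower. Its log2 ratio of -0.12 was close to the median of -0.09 over 174 miRNAs, of which 4 (2.30%) were called higher and 4 lower. The step lay between 1 h and 3 h: the 3 h level was 2.74 times the 1 h level (2.45 to 3.07), the highest log2 ratio (1.42) of 170 miRNAs in that comparison, in which 2 miRNAs were called higher (1.18%). The 24 h level was 0.969 times the 3 h level (0.894 to 1.05), and no difference was detectable at this depth and with this scaling. Its log2 ratio of -0.05 was at place 56 of 173 miRNAs, whose median was -0.19. Of 173 miRNAs, 6 were called higher at 24 h than at 3 h (3.47%) and 19 lower (11%).

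**Figure D1:**
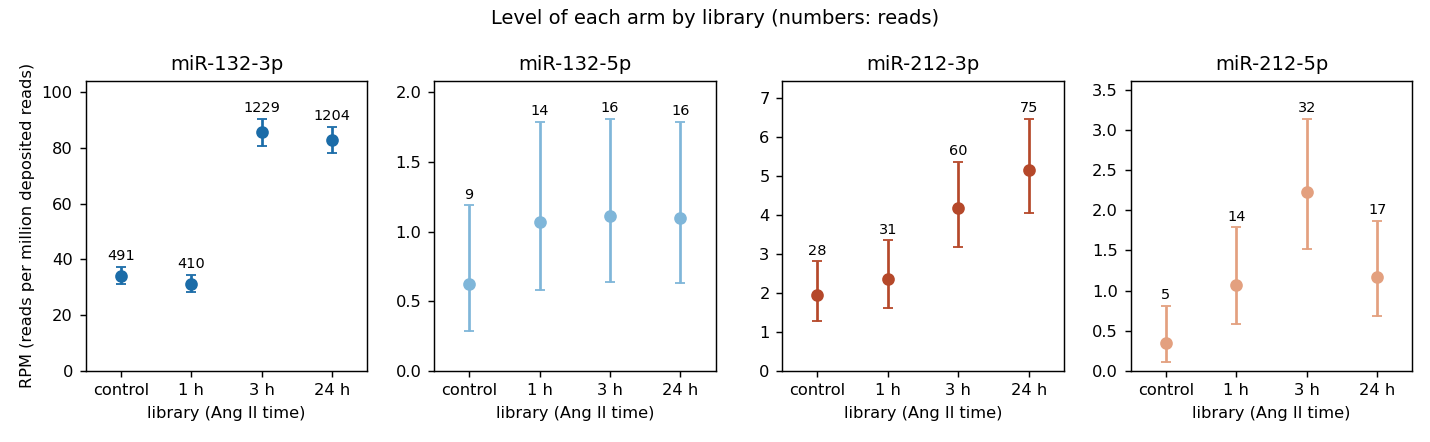
Level of each arm (RPM, vertical axis from 0, a scale of its own in each panel) in the control library and after 1 h, 3 h and 24 h of Ang II. Points are single libraries, bars are exact 95% Poisson intervals and numbers are reads; miR-132-3p stands at 34.1 and 31.3 RPM in the control and at 1 h and at 85.5 and 82.8 RPM at 3 h and 24 h.

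**Figure D2:**
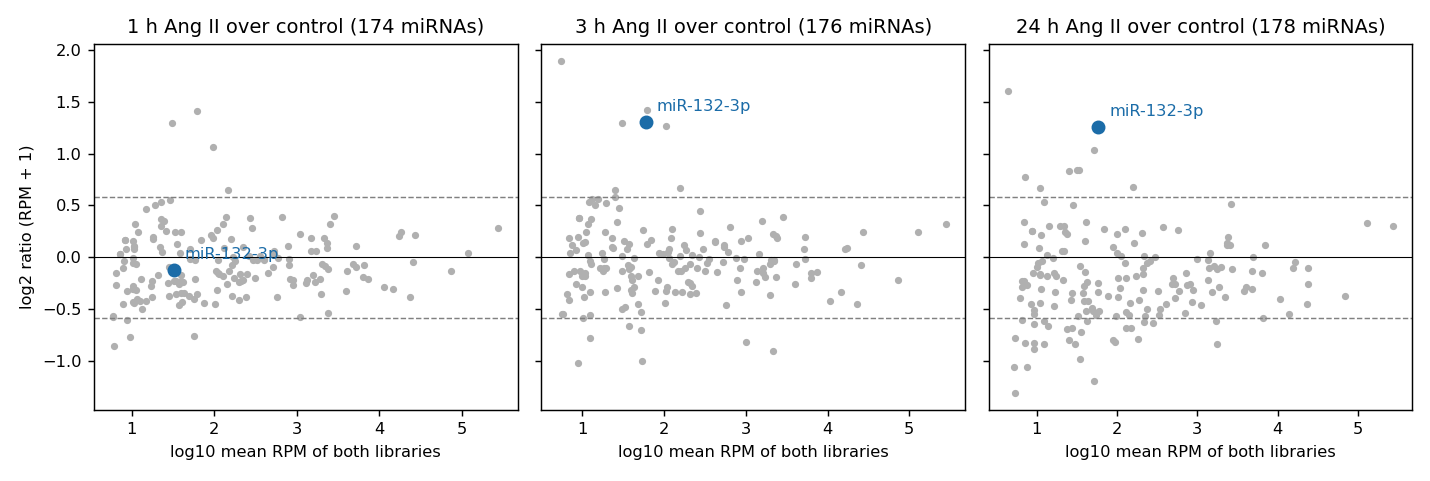
Log2 ratio of each Ang II library to the control (vertical axis) against the log10 mean RPM of both libraries (horizontal axis), 1 grey point for each miRNA with 100 reads in either library. Dashed lines mark 1.5-fold; miR-132-3p (blue) lies at -0.12 at 1 h, inside the lines, and at 1.30 and 1.26 at 3 h and 24 h, above them.

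miR-212-3p has the same seed as miR-132-3p but was far rarer. It had 28 reads in control cells, 31 after 1 h, 60 after 3 h and 75 after 24 h, or 1.95, 2.36, 4.18 and 5.16 RPM. Its intervals ran from 1.29 to 2.81 RPM in the control and from 4.06 to 6.47 RPM at 24 h, and do not overlap. Against the control, the ratio was 1.21 after 1 h (0.705 to 2.10), 2.15 after 3 h (1.35 to 3.49) and 2.65 after 24 h (1.70 to 4.25). With fewer than 100 reads in each library it could not be called. The 3p arms together, which share the seed, had 519 reads in control cells, 441 after 1 h, 1289 after 3 h and 1279 after 24 h.

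The 5p arms were near the limit of counting. miR-212-5p had 5 reads in control cells, 14 after 1 h, 32 after 3 h and 17 after 24 h, or 0.347, 1.07, 2.23 and 1.17 RPM. At 1 h its ratio to the control was 3.07 (1.05 to 10.9). It was highest at 3 h, where the ratio was 6.41, with a wide interval from 2.48 to 21.1, and its 24 h level was 0.525 times the 3 h level (0.274 to 0.974). miR-132-5p had 9 reads in control cells, 14 after 1 h, 16 after 3 h and 16 after 24 h (0.625, 1.07, 1.11 and 1.10 RPM), and its ratios to the control of 1.71 (0.688 to 4.47), 1.78 (0.741 to 4.57) and 1.76 (0.733 to 4.52) all have intervals that include 1. A difference in the sum of miR-132-5p reads was not detectable at this depth.

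**Figure D3:**
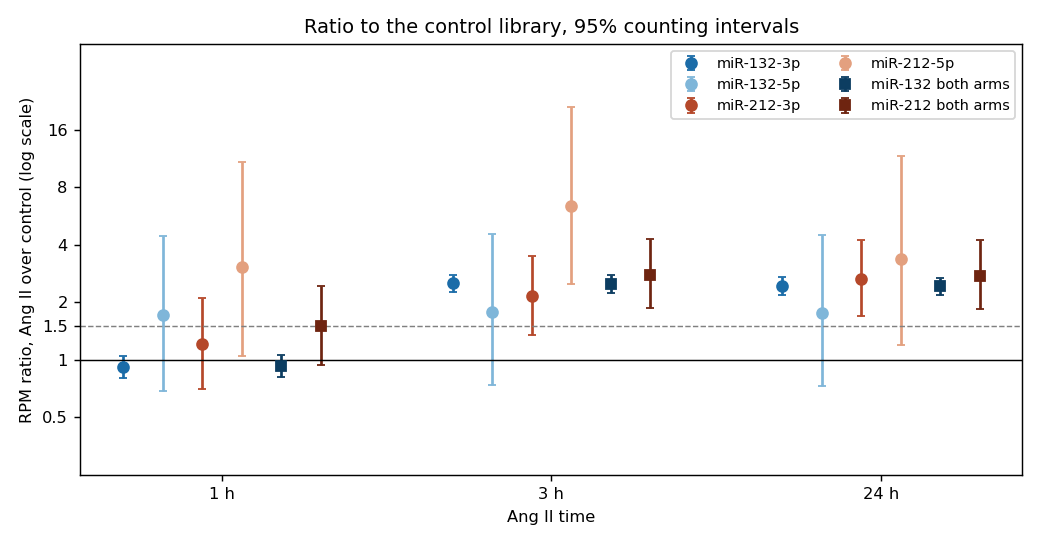
Ratio of the RPM in each Ang II library to that in the control (log axis) for the 4 arms (circles) and for both arms of each hairpin summed (squares), with exact 95% conditional binomial intervals. The solid line marks 1 and the dashed line 1.5-fold; miR-132-3p lies at 0.916 at 1 h and at 2.51 and 2.43 at 3 h and 24 h, and the widest intervals belong to miR-212-5p, with 5 control reads.

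Summed over both arms, the hairpins had like ratios at the later times. miR-212 had 33 reads in control cells and 45, 92 and 92 after 1 h, 3 h and 24 h, and miR-132 had 500, 424, 1245 and 1220. At 3 h the ratio to the control was 2.79 for miR-212 (1.86 to 4.29) and 2.49 for miR-132 (2.25 to 2.77), and at 24 h it was 2.76 (1.84 to 4.24) and 2.42 (2.18 to 2.69). At 1 h it was 1.5 for miR-212 (0.934 to 2.42) and 0.930 for miR-132 (0.816 to 1.06). miR-212 accordingly held 6.19% of the cluster's reads in the control (4.30 to 8.59), 9.59% after 1 h (7.08 to 12.6), 6.88% after 3 h (5.58 to 8.37) and 7.01% after 24 h (5.69 to 8.53), shares whose intervals all overlap.

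The balance of the arms differed between the hairpins. In miR-132 the 5p arm held 1.80% of the hairpin's reads in the control (0.826 to 3.39), 3.30% after 1 h (1.82 to 5.48), 1.29% after 3 h (0.736 to 2.08) and 1.31% after 24 h (0.751 to 2.12). In miR-212 it held 15.2% in the control (5.11 to 31.9), 31.1% after 1 h (18.2 to 46.6), 34.8% after 3 h (25.1 to 45.4) and 18.5% after 24 h (11.1 to 27.9). In each library the share in miR-212 was above that in miR-132, with intervals that do not overlap. Within each hairpin the intervals of all 4 libraries overlap. The 5p arms together had 14 reads in the control and 28 at 1 h, a ratio of 2.19 (1.12 to 4.51), where the 3p arms together stood at 0.932 (0.819 to 1.06). Their share of the cluster's reads was 2.63% in the control (1.44 to 4.37) and 5.97% at 1 h (4.00 to 8.51), with intervals that overlap.

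Single tags show in which form miR-132-3p was present. Its reads fell into 86 distinct tags over the 4 libraries, of which 47 had 1 read in all. The 3 most read are given with bases that depart from the mature sequence in capitals and T for U, as the reads were deposited.
mature: taacagtctacagccatggtcg
mature + U: taacagtctacagccatggtcgT
1 nt shorter: taacagtctacagccatggtc

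The mature form had 286 reads in control cells, 275 after 1 h, 877 after 3 h and 836 after 24 h. The form with an added U had 70, 40, 138 and 154 reads, and the form shorter by 1 nt had 52, 30, 48 and 65. The mature form was thus higher at 3 h and 24 h by more than the other forms together were. Against the control it was 3.07 times as high at 3 h (2.69 to 3.52) and 2.90 times at 24 h (2.53 to 3.32). All other forms together had 352 reads at 3 h against 205 in the control, a ratio of 1.72 (1.44 to 2.05), and 368 at 24 h, a ratio of 1.78 (1.49 to 2.12). The intervals of the mature form and of the others do not overlap at 3 h or at 24 h. At 1 h the mature form stood at 1.06 times the control (0.891 to 1.25) and the others at 0.723 (0.577 to 0.902). Taken alone, the form with an added U had ratios of 1.97 at 3 h (1.47 to 2.67) and 2.18 at 24 h (1.63 to 2.93). Its interval at 24 h overlaps that of the mature form.

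The share of the mature form in the miR-132-3p reads was 58.2% in the control (53.7 to 62.7), 67.1% after 1 h (62.3 to 71.6), 71.4% after 3 h (68.7 to 73.9) and 69.4% after 24 h (66.7 to 72.0). The control interval lies below those of 3 h and 24 h and just touches that of 1 h. The forms with an added U and the shorter forms made up 14.3% and 12.0% of the control reads, 9.76% and 10.5% at 1 h, 11.2% and 6.51% at 3 h, and 12.8% and 7.72% at 24 h. To see whether the libraries as a whole moved in this way, the same share was taken for the 158 miRNAs with 100 reads in each library. At 3 h the share of miR-132-3p was 13.1 percentage points above the control, while the median difference was 0.0566 points and 0 of the other miRNAs had a larger one. At 1 h its difference was 8.82 points, with 3 miRNAs above it and a median of 0.251, and at 24 h it was 11.2 points, with 2 above it and a median of 0.285. Gains of like size were seen in other miRNAs. miR-129-5p gained 12.5 points at 1 h and 11.6 at 3 h, and miR-21-3p gained 13 points at 1 h and 10.7 at 3 h. Both were called higher at these times. The 2 above miR-132-3p at 24 h were not called: miR-181c-5p gained 13.5 points and miR-215 11.3, with log2 ratios of their levels of 0.06 and -0.17. miR-221-5p, called higher at 3 h, had a lower share of the mature form there, 1.38% against 5.47% in the control. Sequencing quality also differed between libraries: reads with an unread base made up 0.352% of the control library and 0.136%, 0.127% and 0.155% of those after 1 h, 3 h and 24 h. Reads of miR-132-3p with a changed base after position 18 made up 8.15%, 6.83%, 6.27% and 5.23% in the same order. The most read tags of this class had a U (42 reads in all) or an A (29 reads) in place of the last base. Such tags can be shorter copies with an added base, so this share is not a rate of sequencing errors. The part that differences in quality between libraries have in the share of the mature form was not tested.

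**Figure D4:**
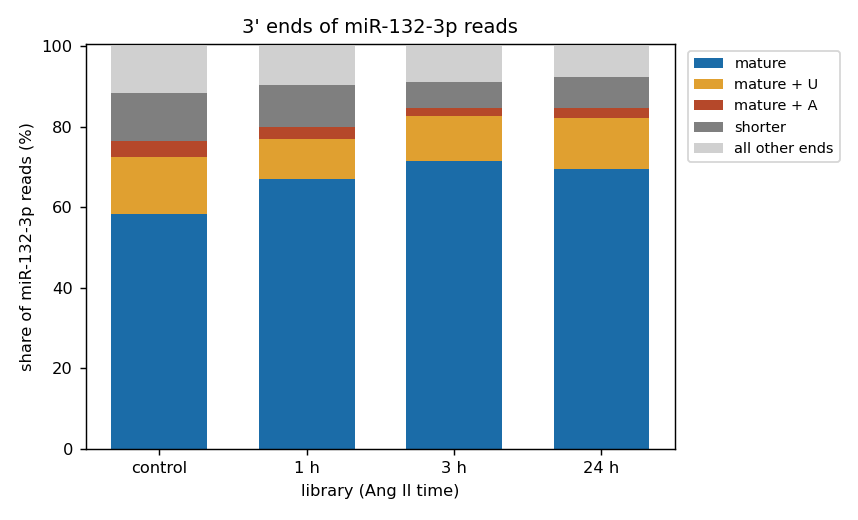
Share of miR-132-3p reads (%) by 3' end in the control library and after 1 h, 3 h and 24 h of Ang II: identical to the mature sequence, with 1 added U, with 1 added A, shorter, and all other ends. The mature form made up 58.2% of the control reads and 67.1%, 71.4% and 69.4% at 1 h, 3 h and 24 h.

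**Figure D5:**
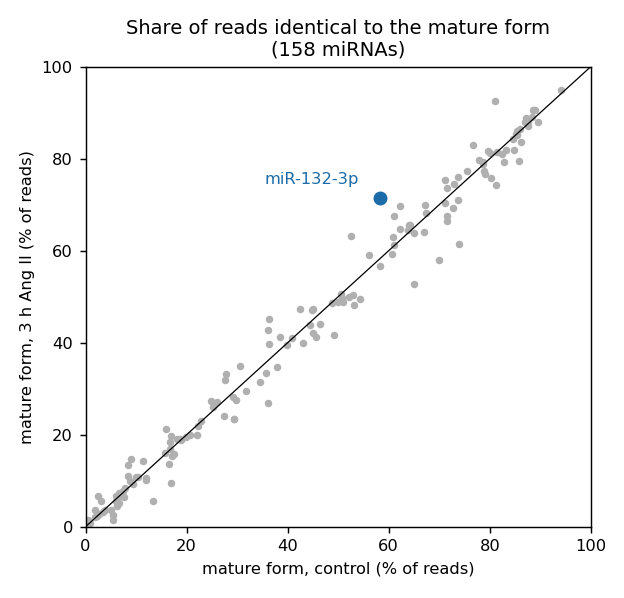
Share of each miRNA's reads that are identical to its mature sequence, 3 h Ang II (vertical axis, %) against control (horizontal axis, %), for 158 miRNAs; the line marks equal shares. miR-132-3p (blue) stands at 71.4% at 3 h against 58.2% in the control, farther above the line than the others.

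The added U is not encoded in the miR-132 hairpin, where a C follows the 3p arm. The form ending in that C had 3, 3, 5 and 7 reads in control cells and after 1 h, 3 h and 24 h. Among 77 miRNAs with 100 reads in each library whose hairpin in the table has another base than U at that place, miR-132-3p had the fifth highest share of the added U in the control, 14.3% against a median of 0.671%. An added A was seen on 19, 12, 24 and 29 reads. Since the 3' adapter of these libraries begins with A, per the labels' protocols, such reads may hold a base of the adapter, which was not tested.

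The other arms had their own ends. The mature form of miR-212-3p had 2, 7, 14 and 13 reads in control cells and after 1 h, 3 h and 24 h, the form shorter by 1 nt 2, 6, 6 and 12, and the form with an added C 0, 1, 18 and 7.
miR-212-3p, mature: taacagtctccagtcacggcca
miR-212-3p, 1 nt shorter: taacagtctccagtcacggcc
miR-212-3p, mature + C: taacagtctccagtcacggccaC
No single tag held a majority of the miR-212-3p reads in any library. The added C was most read at 3 h (18 of 60 reads, 18.8% to 43.2%) and not seen among the 28 control reads, where a count of 0 allows 3 reads. Whether this C is encoded in the miR-212 hairpin was not analysed here. Of the miR-212-5p reads, the most common tag ended 1 nt before the RefSeq sequence, with 3 reads in control cells, 8 after 1 h, 24 after 3 h and 14 after 24 h.
miR-212-5p, 1 nt shorter: accttggctctagactgcttact
The RefSeq form of miR-212-5p itself had 1, 0, 1 and 2 reads, so a count of exact mature sequences leaves out most of this arm, and a form of 22 nt had 0, 4, 0 and 1 reads. For miR-132-5p the mature form was the most read, with 4 of 9 reads without Ang II, 9 of 14 after 1 h, 13 of 16 after 3 h and 15 of 16 after 24 h. The ratio of this form alone to the control was 3.26 at 3 h (from just above 1 to 13.7) and 3.71 at 24 h (1.18 to 15.4), both on 4 control reads.

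Other miRNAs linked to CREB or to neuronal activity were mostly too rare to be called. Of a list of 6 of them, 5 have a sequence in the table, 2 had 100 reads and 0 of these were called at 1 h, 3 h or 24 h, when 2.30%, 3.98% and 5.06% of all miRNAs were called higher, so that 0 of 2 says little about the list. The 2 had median log2 ratios of -0.11, -0.09 and -0.25. miR-9a-5p had 630 reads in control cells and 414, 504 and 472 after 1 h, 3 h and 24 h, and miR-184 had 515, 560, 563 and 491. In a list of 8 miRNAs induced by growth factors or serum, 2 of 7 with 100 reads were called higher at 1 h, 3 of 8 at 3 h and 1 of 7 at 24 h, where 4 of 174 (2.30%), 7 of 176 (3.98%) and 9 of 178 (5.06%) of all miRNAs were. The list had medians of 0.10, 0.09 and 0.23 against -0.09, -0.05 and -0.25 over all miRNAs tested. Both lists were chosen with earlier results of these data known, so these counts and medians only describe them and test nothing. The members of this list called higher were rarer arms: miR-21-3p at each time, miR-221-5p at 1 h and 3 h, and miR-222-5p at 3 h. miR-222-5p had 25 reads in the control, 40 at 1 h and 24 at 24 h, and reached 100 reads at 3 h alone. Its level at 3 h was 9.19 RPM against 1.74 RPM in the control. It was thus counted among the 8 at 3 h only through the library in which it was high. miR-21-3p had 583 reads at 1 h against 253 in the control and miR-221-5p 1724 against 896 (log2 ratios of 1.29 and 1.07), at a time when miR-132-3p was not called.

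The miRNAs whose levels over the 4 libraries were most like those of miR-132-3p were found by the Euclidean distance of log2(RPM + 1), centred on each miRNA's mean, among 178 others with 100 reads in a library. They were miR-193a-3p (distance 0.911), miR-29b-3p (0.930), miR-664-3p (0.960), miR-182 (0.997) and miR-183-5p (1.03), where the median distance was 1.48. None of the 5 had a step between 1 h and 3 h as large as that of miR-132-3p. miR-193a-3p, the nearest, had 9.73 RPM in control cells and 11, 14.5 and 14.5 RPM after 1 h, 3 h and 24 h. miR-29b-3p, known for targeting mRNAs of the extracellular matrix, had 120 RPM in control cells and 157, 192 and 193 RPM after 1 h, 3 h and 24 h. In the same order, miR-664-3p had 22.2, 19.6, 23.9 and 40.5 RPM, and miR-182 had 23.7, 28.5, 30.2 and 43.3 RPM. miR-183-5p had 8.27, 7.62, 8.70 and 13.8 RPM. Unlike miR-132-3p, with a 24 h level 0.969 times its 3 h level, miR-664-3p, miR-182 and miR-183-5p were clearly highest at 24 h. These 4 points per miRNA are single libraries, so likeness is a description.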

How the data were processed

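For each of the 4 libraries the authors deposited a list of distinct sequences (tags) with raw counts of reads, with no header and no normalization. Per the labels' protocols, small RNA was size-selected, amplified and sequenced on an Illumina Genome Analyzer IIx. Novoalign and the build rn4 are named, with no role, per the submitters' processing notes; trimming and filtering are not given in the sources used here. A row named QC holds no sequence and 5.13% to 7.07% of each file's reads, and was left out. Tags of at least 18 nt were matched to 686 of the 693 RefSeq mature sequences (GRCr8; 7 are shorter than 18 nt) by their first 18 bases; ties went to the longest common start. Levels are RPM of all reads that name a sequence. With 1 library per group no test of conditions was made. Intervals are exact Poisson (levels), Clopper-Pearson (shares) and conditional binomial (ratios) intervals at 95%; PCR copies are not independent molecules. Named were the 4 members, their 3 most read tags, list members past 1.5-fold and the 5 miRNAs of most similar pattern. Marker miRNAs, miR-9a-5p, miR-184, miR-129-5p, miR-129-2-3p, miR-181c-5p and miR-215 were named outside this rule, after their values were seen. Members, lists and rules were chosen with earlier results of these data known. The search of the promoter for CREB motifs and the part of the tag placements that needs the miR-212 hairpin were not analysed here. Matching, intervals and calls were tested on simulated data. The simulated counts held counting error alone, for well-read miRNAs, and say nothing of variation between libraries or of the rarer arms. Alternatives covered scaling (edgeR 4.0.16 in R 4.3.3 for TMM), pseudocount, matching, tag length, limits and the compared library. Software: scipy 1.17.1, pandas 2.3.3, matplotlib 3.10.9 and numpy 2.4.6, under Python 3.11.15.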

Additional observations from a re-analysis of the deposited data

Results flagged for a closer look

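miR-132-3p lay on the other side of the control at 1 h (log2 ratio -0.12, 410 reads against 491) than at 3 h (1.30) and 24 h (1.26). This difference between times was not tested, and the 1 h interval includes the control level.

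Tags of miR-132-3p that start 1 or 2 nt inside the mature sequence, and so carry another seed, are outside the count of members and had more reads at 3 h and 24 h than in the control. The start 1 nt inside had 14 reads in control cells and 10, 48 and 31 after 1 h, 3 h and 24 h, with ratios to the control of 0.784 (0.311 to 1.90), 3.43 (1.86 to 6.75) and 2.19 (1.13 to 4.46). The start 2 nt inside had 7 reads in control cells and 9, 31 and 33 after 1 h, 3 h and 24 h.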

How the results depend on the processing

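miR-132-3p was called higher at 3 h and 24 h under each of the 14 alternatives tried at each time, with log2 ratios from 1.11 to 1.57 and from 1.07 to 1.52, and so was the sum of the 4 arms under its 13. At 1 h neither was called under any, and the log2 ratio of miR-132-3p lay below 0 under 11 and above 0 under 2 of 13 (0.07 with mature sequences alone, 0.02 with tags lying whole within the hairpin). The log2 ratio of the sum at 1 h ran from -0.14 to 0.12, below 0 under 8 of 12. With the pseudocount at 10 RPM the log2 ratios at 3 h and 24 h were 1.11 and 1.07 for miR-132-3p and 1.13 and 1.09 for the sum. With mature sequences alone they were 1.57 and 1.49, and 1.58 and 1.5 for the sum. At 24 h they were 1.52 with TMM and 1.5 with median-of-ratios factors for miR-132-3p, and 1.52 and 1.51 for the sum. These factors moved the median of all miRNAs at 24 h from -0.25 to 0.01 and -0.01. With the same factors miR-132-3p had 1.36 and 1.33 at 3 h. On these scales its 24 h level was thus above its 3 h level, which it was not in RPM. For miR-212-5p the log2 ratio at 1 h was -0.10 with mature sequences alone (0 reads at 1 h, 1 in the control) in place of 0.62. The share of miR-132 in the cluster's reads was between 97.6% and 99.0% with mature sequences alone, and that of miR-212-5p in miR-212 was 33.3% in the control, 0% at 1 h and 6.67% at 3 h, where its usual tag is left out by construction.

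Counts of all miRNAs past 1.5-fold depended more on the settings. At 1 h, 4 higher and 4 lower became 7 higher with TMM or median-of-ratios factors, 9 lower when scaled to miRNA reads, 8 higher with at least 20 reads, 0 lower at 2-fold and 1 lower with 10 RPM. At 3 h, 7 higher and 7 lower became 14 lower when scaled to miRNA reads (5 higher), 13 higher and 11 lower with at least 20 reads, 2 lower at 2-fold and 4 lower with 10 RPM. At 24 h, 9 higher and 29 lower became 44 lower when scaled to miRNA reads, 14 higher and 9 lower with TMM factors, 12 higher and 11 lower with median-of-ratios factors, 3 higher and 4 lower at 2-fold and 13 lower with 10 RPM. Adding tags of 16 and 17 nt and counting trimmed or extended copies alone were chosen after seeing the data. The depth limits the 5p arms and miR-212-3p, each under 100 reads in every library. No paired analysis was possible because each group is 1 library.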

Other observations

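A fragment of the miR-132 hairpin that covers its loop (ctgtgggaaccggaggta, first base at position 43 of the hairpin, T for U) had 0 reads in control cells, 1 after 1 h, 5 after 3 h and 0 after 24 h. A count of 0 allows up to 3 reads, or 0.206 RPM at 24 h and 0.208 RPM without Ang II. The 3 h level was 0.348 RPM, which rests on 5 reads and has counting error of its own. Whether it differs from the other libraries was not tested. Tags of miR-132-5p that start 1 nt before the mature sequence had 1, 0, 3 and 3 reads in control cells and after 1 h, 3 h and 24 h, and tags of miR-132-3p that start 1 or 2 nt before it had 0 in each library.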
